A study of Mus musculus with 4 samples.

Results

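The nuclear-encoded subunits of the mitochondrial respiratory chain were described as a set of 76 genes in bone marrow cells of mice labelled with the mutant kinase JAK2V617F. Rows of the gene expression table were taken by symbol, from the families named Ndufa, Ndufb, Ndufc, Ndufs, Ndufv, Uqcr, Cox4i, Cox5, Cox6, Cox7, Cox8 and Atp5 and the 4 Sdh subunits, leaving out the Ndufaf assembly factors and pseudogenes. Of 24340 rows, 85 matched, and 76 of these averaged 1 FPKM or more across the 4 libraries. FPKM counts fragments per kilobase of transcript, scaled to the number of mapped fragments. The set held 36 genes filed under complex I, 4 under complex II, 8 under complex III, 13 under complex IV and 15 under complex V.

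Tet2 is the enzyme that turns methylcytosine into hydroxymethylcytosine, and the study's title asks what its mutation does to DNA repair in leukemia cells. Each of 4 groups was 1 RNA library, depleted of ribosomal RNA, from lineage-negative, Kit-positive cells of C57BL/6 mice. The groups were Tet2-/- cells with ruxolitinib, Tet2-/- control cells, Tet2+/+ cells with ruxolitinib and Tet2+/+ control cells, and the labels of all 4 give JAK2V617F. The series description names Flt3ITD in its place, and the labels were followed. The groups are called here the ruxolitinib knockout, the control knockout, the ruxolitinib wild type and the control wild type. JAK2V617F is the activated kinase of myeloproliferative neoplasms, and ruxolitinib inhibits JAK1 and JAK2. The series describes the gene inactivation as conditional and limited to blood cells, and the drug as given to cells already taken from the marrow. The labels give no dose, no exposure time and no age, and do not say how many animals stood behind a library. With 1 library in a group there was no replicate check, so every difference below compares libraries and carries no p-value of its own.

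The respiratory chain sits in the inner mitochondrial membrane. Complex I takes electrons from NADH and complex II from succinate, coenzyme Q carries them to complex III, cytochrome c carries them to complex IV, and complex IV passes them to oxygen. The proton gradient that builds up along the way drives complex V, the ATP synthase. Most subunits are encoded in the nucleus and imported, and blood-forming cells are known to lean more on this chain as they leave the quiescent stem cell state.

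The libraries differed in ways that bear on every comparison. Total FPKM was 466334 in the ruxolitinib knockout, 473933 in the control knockout, 511644 in the ruxolitinib wild type and 526299 in the control wild type. Depth, estimated from the spacing of low FPKM values, was about 52500000 fragments in the ruxolitinib knockout and 54300000 in the control knockout, against 48400000 in the ruxolitinib wild type and 43900000 in the control wild type. Xist, the X-inactivation RNA of female cells, stood at 62.2 FPKM in the ruxolitinib knockout and 53.2 in the control knockout, against 0.0309 in the ruxolitinib wild type and 0.0241 in the control wild type. The Y-linked gene Ddx3y was the reverse, with 0.00886 and 0.0288 FPKM in the ruxolitinib and control knockouts and 18.7 and 21.3 in the ruxolitinib and control wild types. Genotype and sex therefore cannot be told apart. Tet2 itself was at 4.39 FPKM in the ruxolitinib knockout, 3.62 in the control knockout, 5.05 in the ruxolitinib wild type and 4.69 in the control wild type. A gene-level value of this kind does not test the deletion, because transcripts that lack an exon are still counted.

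Kit had 562 FPKM in the ruxolitinib knockout, 421 in the control knockout, 647 in the ruxolitinib wild type and 487 in the control wild type, so it was higher with the drug in both genotypes. Of 10 mast cell markers, 9 were measured, and their summed level was 22169 FPKM in the ruxolitinib knockout, 18378 in the control knockout, 30105 in the ruxolitinib wild type and 26415 in the control wild type. The mast cell protease Cma1, the largest part of each sum, alone reached 15834 FPKM, in the ruxolitinib wild type, while Cpa3 was listed at 0. Single markers did not all follow the sum. Tpsab1, Hdc and Gata2 were lower with the drug in both genotypes, and the other measured mast cell markers were higher. Tpsab1 was higher in the knockout with and without the drug, and Tpsb2, Mcpt4 and Hdc only with it. Cma1, Fcer1a, Ms4a2, Kit and Gata2 were lower in the knockout in both comparisons. Only 2 of 7 granulocyte-monocyte markers passed the filter, with summed levels of 32.6 and 34.1 FPKM in the ruxolitinib and control knockouts and 114 and 95.9 in the ruxolitinib and control wild types, and Elane did not exceed 0.0256 FPKM in any library. Of the erythroid markers 3 of 7 were measured, and their sum was 40.0 FPKM in the ruxolitinib knockout, 61.3 in the control knockout, 29.0 in the ruxolitinib wild type and 42.0 in the control wild type. Stem cell markers, 4 of 5 measured, summed to 508 FPKM in the ruxolitinib knockout, 358 in the control knockout, 481 in the ruxolitinib wild type and 354 in the control wild type. Most of that sum was Cd34, with 465 and 317 FPKM in the ruxolitinib and control knockouts and 431 and 307 FPKM in the ruxolitinib and control wild types, and it was higher with the drug in both genotypes. Megakaryocyte markers, 2 of 5 measured, summed to 537 FPKM in the ruxolitinib knockout, 447 in the control knockout, 750.3 in the ruxolitinib wild type and 669 in the control wild type, nearly all of it Itga2b. No marker of B cells, of T and NK cells or of stroma passed the filter, of 4 listed for each. The part of these marker differences in the subunit values was not tested.

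**Figure D1:**
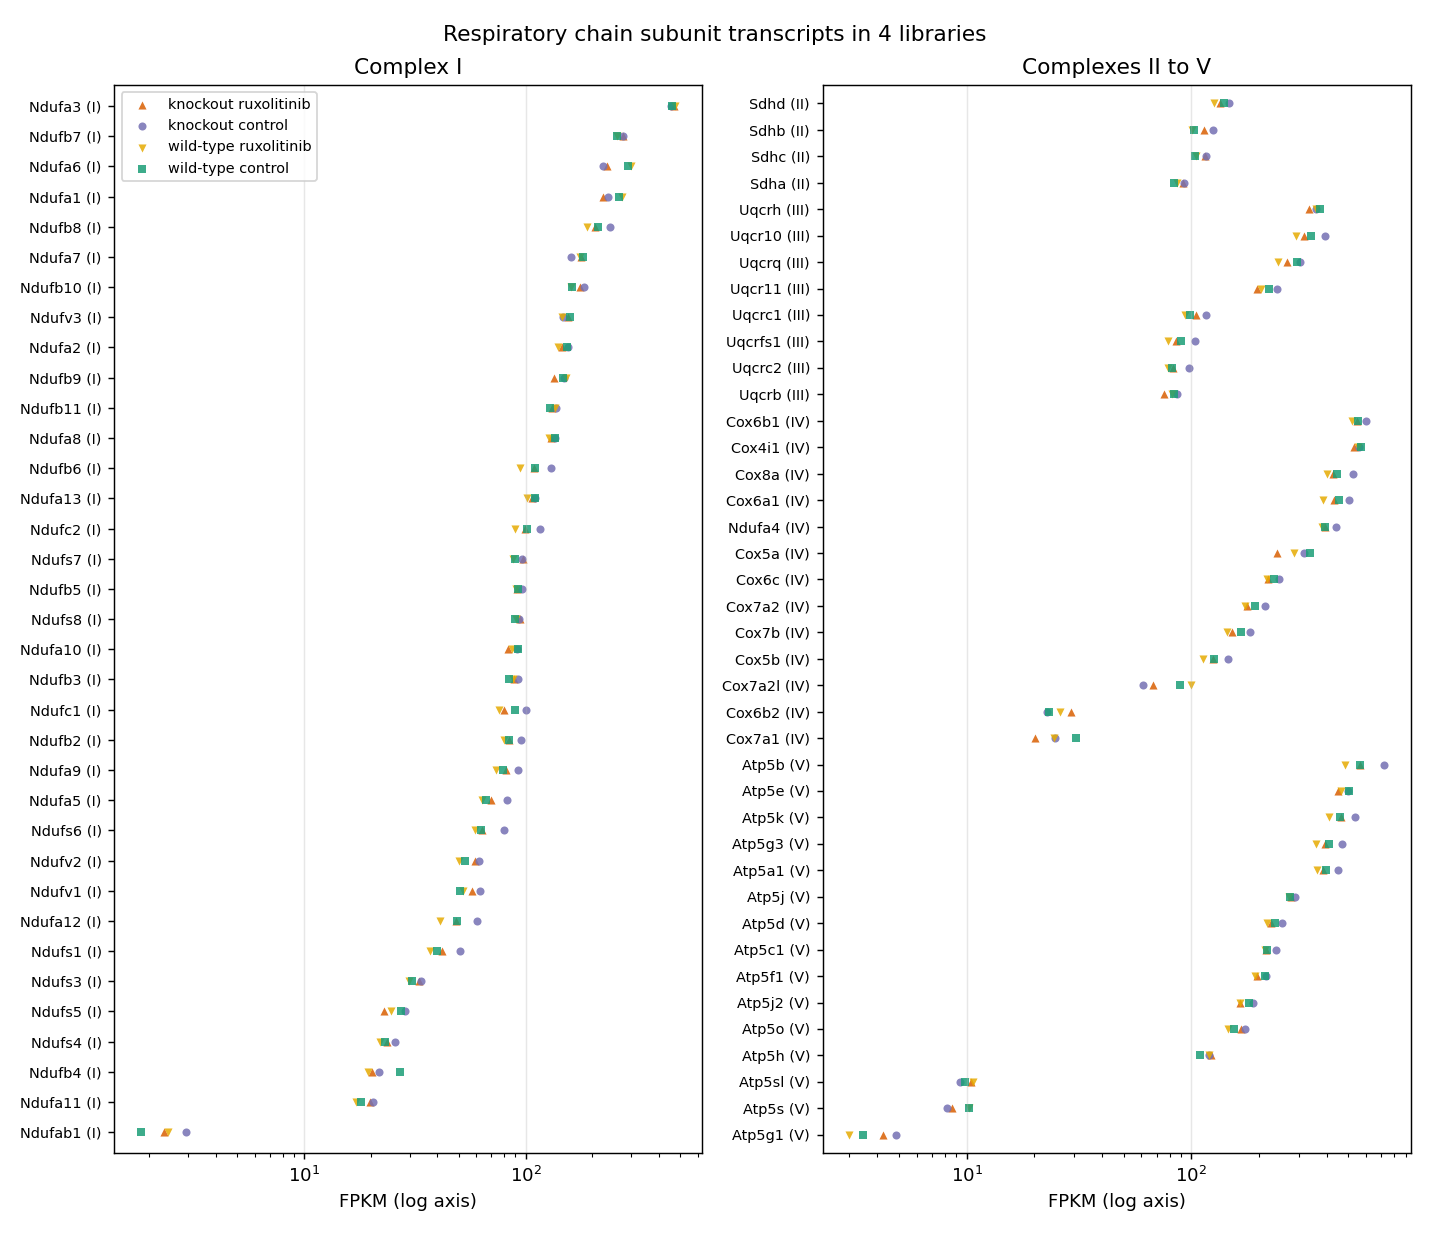
FPKM of the subunit genes in each library on a log axis, complex I on the left and complexes II to V on the right, 1 row per gene and 1 symbol per library. The circle of the control knockout lies furthest right in most rows, and most rows span a narrow range.

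Subunit transcripts were abundant and close to each other across libraries, as the plot of levels by gene shows. Mean levels ran from 2.38 FPKM for Ndufab1 to 583 FPKM for Atp5b, which was the 80th most abundant row of the whole table. The summed FPKM of the 76 genes was 12969 in the ruxolitinib knockout, 14443 in the control knockout, 12613 in the ruxolitinib wild type and 13499 in the control wild type. As a share of all FPKM this was 2.78% in the ruxolitinib knockout, 3.05% in the control knockout, 2.47% in the ruxolitinib wild type and 2.56% in the control wild type. The set as a whole was thus highest in the control knockout and lowest in the ruxolitinib wild type. In bulk RNA of this kind, fewer cells of a type and less RNA per cell cannot be told apart.

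The pattern over the 4 libraries was shared by most members. Of the 76 genes, 54 (71.1%) had their highest value in the control knockout, beside 31.8% of all 10471 measured genes. The ruxolitinib knockout was highest for 4 members and the ruxolitinib wild type for 6, beside 19.8% and 28.2% of all genes. The lowest value was in the ruxolitinib wild type for 49 members (64.5%), beside 26.3% of all genes. A total of 51 members (67.1%) were higher in the knockout both with and without the drug, and 12 were lower in both. For all genes, 41.4% were higher in both and 40.3% lower in both. With the drug, 57 members (75%) were lower in both genotypes and 7 were higher in both, against 36.5% and 39.7% of all genes. Both features together, the control knockout highest and lower values with the drug in both genotypes, held for 48 members (63.2%) and 23.6% of all genes.

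The proximal promoters of a few members are printed for orientation, since the transcription factor NRF1 is known to bind many respiratory chain promoters. RefSeq promoter sequences (assembly GRCm38.p6, 250 bases before to 50 after the start) were found for 62 of the 76 members. The NRF1 letters GCATGCGC were present, on either strand, in 8 of them (12.9%), against 6.62% of 7963 measured genes and 3.05% of all 27025 genes of the table. The 100 bases before the start are given for 4 genes described below, 5′ to 3′ along the gene, with GCATGCGC or its reverse complement in capitals. Sdhb and Atp5k stood higher in the knockout libraries, Atp5k with ratios of 0.18 with and 0.21 without the drug, and Ndufa6 and Cox7a2l stood lowest relative to wild type. The stretches are chr4:140961171-140961270 (plus strand) for Sdhb, chr5:108434400-108434499 (minus) for Atp5k, chr15:82354292-82354391 (minus) for Ndufa6 and chr17:83514334-83514433 (minus) for Cox7a2l.
Sdhb: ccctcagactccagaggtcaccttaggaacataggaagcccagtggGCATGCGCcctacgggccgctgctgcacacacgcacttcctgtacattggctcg
Atp5k: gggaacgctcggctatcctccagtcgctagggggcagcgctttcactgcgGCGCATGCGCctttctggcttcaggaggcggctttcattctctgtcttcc
Ndufa6: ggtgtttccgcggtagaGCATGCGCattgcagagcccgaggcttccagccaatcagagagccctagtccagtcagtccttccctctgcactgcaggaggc
Cox7a2l: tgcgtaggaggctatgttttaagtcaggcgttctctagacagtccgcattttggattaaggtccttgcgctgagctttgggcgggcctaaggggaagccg
The motif began 54 bases before the start in Sdhb and 83 bases before it in Ndufa6. In Atp5k the letters occur on both strands in overlap, so the capitals there span both copies. The Cox7a2l stretch holds none of the 5 motifs searched. The motif was thus present in a gene with a higher level in the knockouts and in a gene with a lower one.

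The other motifs, searched on both strands in the same promoters, were also counted. The ETS letters CCGGAAG were in 15 members (24.2%) and 22.8% of measured genes. YY1 (AAGATGGCG) was found in 7 members (11.3%) and 4.22% of measured genes. The ERRA letters TCAAGGTCA were in 2 members (3.23%) and 0.339% of measured genes, and the E-box CACGTG was in 4 members (6.45%) and 12.3%. Members with the NRF1 letters had a median log2 ratio of 0.17 between the control knockout and the control wild type, and the 54 without them one of 0.13. Between the ruxolitinib knockout and the ruxolitinib wild type these medians were 0.16 and 0.08. For the drug they were -0.14 in both groups in the knockout, and -0.08 and -0.09 in wild type. The 4 members with the E-box had genotype medians of 0.13 with and 0.24 without the drug, against 0.08 and 0.13 for the 58 others. Without the drug, members with and without the letters had 0.12 and 0.14 for ETS, 0.14 and 0.13 for YY1 and 0.14 and 0.14 for ERRA. These matches describe letters in a window and not binding.

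Without the drug, most subunits stood slightly higher in the knockout library. Ratios here are log2 of (FPKM + 1) over (FPKM + 1), which understates differences of low genes. Between the control knockout and the control wild type the median over the 76 members was 0.13, against 0.00 over all measured genes, and 58 members were above 0, beside 50.4% of all genes. The quartiles of the members were 0.02 and 0.20. Only 9 members were at least 1.2-fold higher and 5 at least 1.2-fold lower, beside 16.6% and 16.5% of all genes, so the members shared a small shift and did not hold many large differences. No member was 1.5-fold higher or lower, where 3.88% and 5.06% of all genes were.

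The same comparison under ruxolitinib gave smaller values. Between the ruxolitinib knockout and the ruxolitinib wild type the median was 0.08, against 0.00 over all measured genes, and 57 members were above 0, beside 50.2% of all genes. Atp5g1 was the member at least 1.2-fold higher, and 4 were at least 1.2-fold lower, beside 12.2% and 12.1% of all genes. At 1.5-fold there was no member in either direction, where 2.97% of all genes were higher and 3.34% lower. Across the 76 members, the genotype ratios with and without the drug, which share no library, gave a Pearson correlation of 0.78 (Spearman 0.74). Over all measured genes the correlation was 0.34 (Spearman 0.80). Within a comparison all points come from the same pair of libraries and share their depth, and in the genotype comparisons also the difference in sex.

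**Figure D2:**
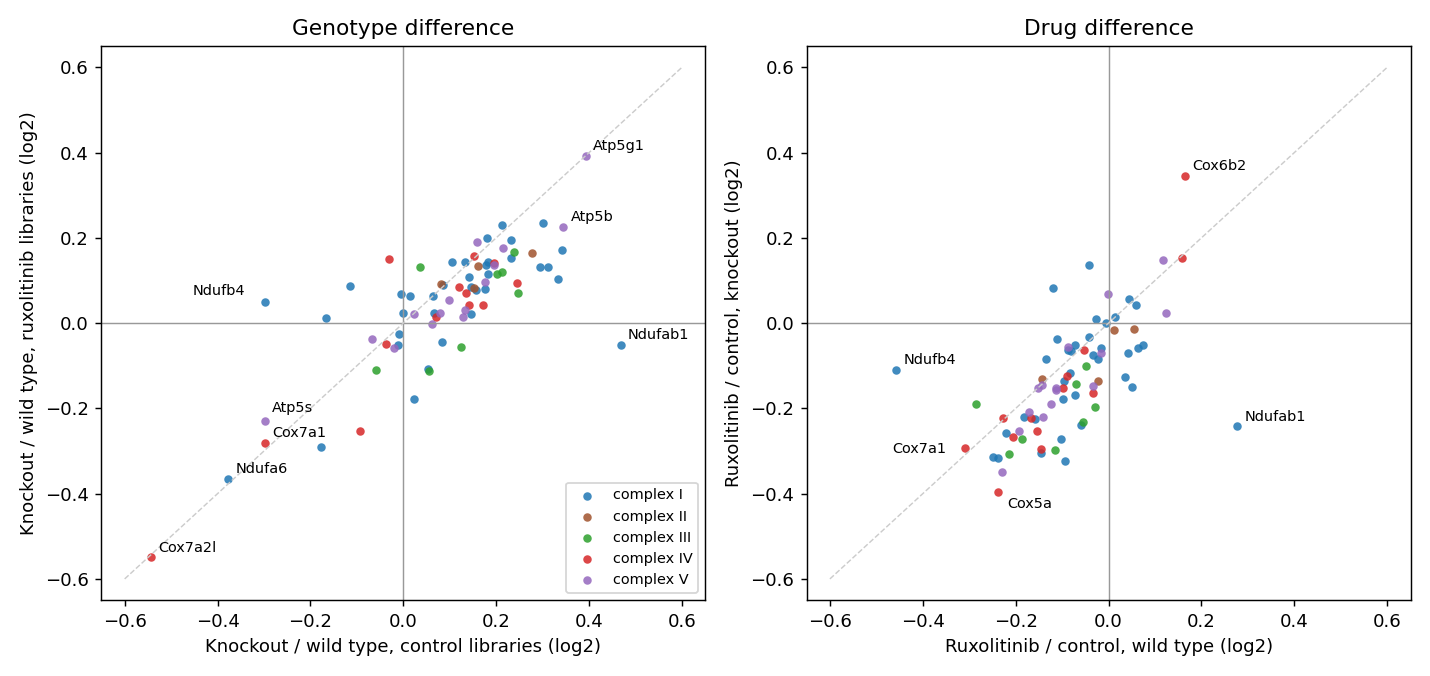
Log2 ratios of the 76 members in pairs of comparisons that share no library: knockout over wild type with (y) and without ruxolitinib (x) on the left, ruxolitinib over control in the knockout (y) and in wild type (x) on the right, coloured by complex. Most genotype points lie above 0 on both axes and most drug points below 0 on both, with Cox7a2l and Ndufa6 far below 0 on the left.

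The size of the genotype shift depended on the scale. Total FPKM was lower in both knockout libraries, and rescaling every library to the same total (TPM) moved the median of all genes by 0.13 with the drug and by 0.14 without it. On that scale the members' medians were 0.21 with the drug and 0.28 without it, and 69 members were above 0 in each comparison, where 72.2% and 70.2% of all genes were. Relative to the all-gene median on that scale, 58 members with the drug and 59 without it stood above it. The members' place relative to other genes was thus close on both scales, and the absolute sign of single small ratios was not.

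Most subunits had lower levels with ruxolitinib in both genotypes. Of the marker sums given above, the erythroid sum was also lower with the drug in both. Kit and the mast cell, stem cell and megakaryocyte sums were higher in both. The granulocyte-monocyte sum was lower with the drug in the knockout and higher in wild type. In the knockout, the median ratio of the ruxolitinib library over the control library was -0.14, against 0.00 over all genes, and 11 members were above 0, beside 50.8% of all genes. For wild type the median was -0.09, against 0.01 over all genes, and 15 members were above 0, beside 51.9%. A total of 13 members were at least 1.2-fold lower with the drug in the knockout, beside 11.1% of all genes, and 3 in wild type, beside 8.23%. In each genotype 1 member was at least 1.2-fold higher, beside 10.3% of all genes in the knockout and 7.25% in wild type. No member was 1.5-fold higher or lower in either genotype. Of all genes, 1.67% were 1.5-fold higher and 2.2% lower in the knockout, and 1.05% higher and 2.64% lower in wild type. On the TPM scale the medians were -0.12 in the knockout and -0.05 in wild type, against 0.03 and 0.05 over all genes. On that scale 14 knockout and 26 wild-type ratios were above 0, beside 55.3% and 60.6% of all genes.

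The drug ratio was lower in the knockout than in wild type for 55 members, with a median difference of -0.05 against -0.01 over all genes. This difference was not tested, since each of the 4 values behind it is 1 library. Of all genes, 47.4% had a difference above 0, and 21 members did. Ndufb4 was the member with a difference of at least 1.2-fold upwards, and Ndufab1 the one downwards, beside 6.26% and 3.95% of all genes. At 1.5-fold there was none, beside 1.82% and 1.14%. Across members the drug ratios of the knockout and of the wild type, which also share no library, gave a Pearson correlation of 0.63 (Spearman 0.71), and all genes one of 0.16 (Spearman 0.68).

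**Figure D3:**
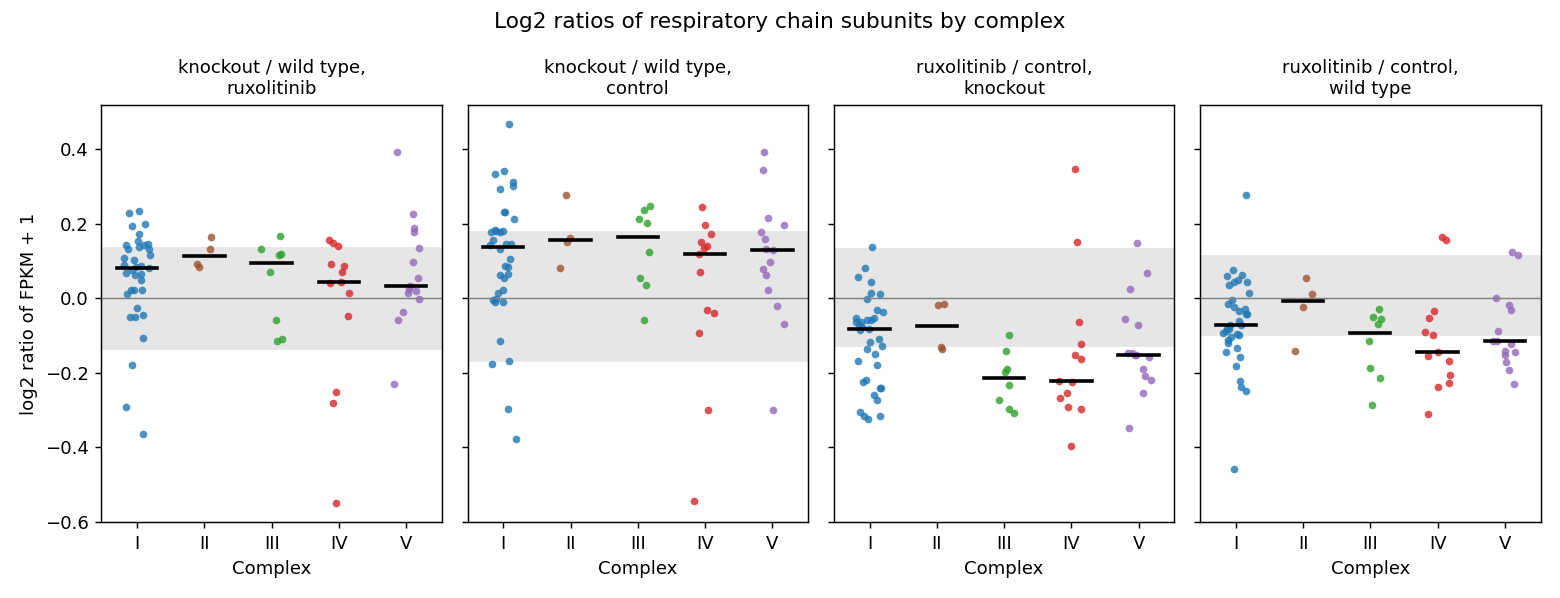
Log2 ratio of each member, grouped by complex, in the 4 comparisons. Points are genes, black bars are the medians of each complex, and the grey band is the interquartile range of all 10471 measured genes. Complex medians lie between 0.12 and 0.16 in the panel of genotype ratios without the drug and are all below 0 in the 2 drug panels.

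The plot by complex gives the median of each complex. In the ruxolitinib knockout over the ruxolitinib wild type they were 0.08 for complex I, 0.11 for complex II, 0.09 for complex III, 0.04 for complex IV and 0.03 for complex V. Without the drug, the genotype medians were 0.14, 0.16, 0.16, 0.12 and 0.13 in the same order. Ruxolitinib over control gave -0.08, -0.07, -0.21, -0.22 and -0.15 in the knockout and -0.07, -0.01, -0.09, -0.14 and -0.11 in wild type. Complexes III and IV thus had the lowest drug medians in the knockout, and complexes I and II those nearest 0.

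In complex I, the NADH dehydrogenase, the 7 catalytic core subunits of the matrix arm were all above 0 in both genotype comparisons, with a median of 0.14 with the drug and 0.15 without it. Ndufs1, which holds several iron-sulfur clusters, had 41.8 FPKM in the ruxolitinib knockout and 50.7 in the control knockout, against 37.0 in the ruxolitinib wild type and 39.8 in the control wild type. Its log2 ratio was 0.17 with the drug and 0.34 without it. Both knockout values of Ndufs1 lay above both wild-type values.

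Ndufv1, which binds NADH, had 57.0 FPKM in the ruxolitinib knockout, 62.4 in the control knockout, 52.0 in the ruxolitinib wild type and 50.7 in the control wild type. Ndufv2, its iron-sulfur partner, had 58.9 FPKM in the ruxolitinib knockout, 61.6 in the control knockout, 50.1 in the ruxolitinib wild type and 53.0 in the control wild type. For both genes the knockout values lay above the wild-type ones.

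The 29 accessory subunits of complex I were more mixed, with 20 above 0 without the drug. The 13 whose symbols begin with Ndufa, leaving out Ndufa4, had a median of 0.00 there, with 6 above 0. These include Ndufab1, at 0.47. The 10 Ndufb subunits, which belong to the distal membrane arm, had a median of 0.12, with 9 above 0. Ndufs6, an accessory subunit needed late in assembly, had 63.6 FPKM in the ruxolitinib knockout, 79.8 in the control knockout, 59.1 in the ruxolitinib wild type and 63.1 in the control wild type. It stood highest in the control knockout, with a genotype ratio of 0.33 without the drug and a drug ratio of -0.32 in the knockout.

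Ndufa12 had 48.4 FPKM in the ruxolitinib knockout, 60.5 in the control knockout, 41.0 in the ruxolitinib wild type and 48.9 in the control wild type. Its genotype ratios were 0.23 with the drug and 0.30 without it, and its drug ratios were -0.32 in the knockout and -0.25 in wild type. The ruxolitinib knockout and the control wild type overlapped. Ndufa3, the most abundant complex I member, differed little, with 466 and 452 FPKM in the ruxolitinib and control knockouts and 475 and 456 FPKM in the ruxolitinib and control wild types. Ndufb7, another abundant accessory subunit, had 275 and 276 FPKM in the ruxolitinib and control knockouts and 259 FPKM in each wild-type library. Ndufc1 had 80.1 FPKM in the ruxolitinib knockout, 100.01 in the control knockout, 75.9 in the ruxolitinib wild type and 89.7 in the control wild type, with drug ratios of -0.32 in the knockout and -0.24 in wild type.

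Ndufa6 was the complex I member with the lowest genotype ratios, and its promoter carries the NRF1 letters shown above. It encodes a small LYR-motif subunit that binds the acyl carrier protein. Its level was 233 FPKM in the ruxolitinib knockout and 224 in the control knockout, against 299.9 in the ruxolitinib wild type and 291 in the control wild type. The log2 ratios were -0.37 with the drug and -0.38 without it, and -0.23 in each on the TPM scale. The knockout and wild-type values did not overlap, and the drug ratios were 0.06 in the knockout and 0.04 in wild type. In the authors' deposited table Ndufa6 had q-values of 0.0458 and 0.0378 for the genotype comparisons with and without the drug. Its locus is chr15:82350139-82354291 (mm10), and none of its 50-base words occurs in another annotated gene.

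Ndufa1 lies on the X chromosome, where genotype and sex cannot be told apart. It had 223 FPKM in the ruxolitinib knockout, 235 in the control knockout, 273 in the ruxolitinib wild type and 265 in the control wild type. The genotypes did not overlap, with ratios of -0.29 with the drug and -0.18 without it. The other X-linked members had genotype ratios with and without the drug of -0.04 and 0.08 (Ndufb11) and of 0.07 and 0.13 (Cox7b). Leaving out the 3 X-linked members, the genotype medians were 0.08 with the drug and 0.13 without it.

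Ndufb4, in the distal membrane arm, was read with less precision. Its values were 20.2 FPKM in the ruxolitinib knockout, 21.9 in the control knockout, 19.5 in the ruxolitinib wild type and 27.1 in the control wild type. Only the control wild type stood apart, so the genotype ratio was 0.05 with the drug and -0.30 without it. Of its 50-base words 37.0% occur in other annotated genes, 3 of them pseudogenes.

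Complex II, the succinate dehydrogenase, was higher in the knockout for all 4 subunits in both genotype comparisons. Sdhb, its iron-sulfur subunit, had 113 FPKM in the ruxolitinib knockout and 125 in the control knockout, against 101 in the ruxolitinib wild type and 103 in the control wild type. Both knockout values lay above both wild-type values, and the ratios were 0.16 with the drug and 0.28 without it. Sdha, the flavoprotein that oxidises succinate, had 91.9 and 92.9 FPKM in the ruxolitinib and control knockouts and 86.7 and 83.5 FPKM in the ruxolitinib and control wild types. The membrane anchor Sdhc had 115 and 116 FPKM in the ruxolitinib and control knockouts and 104 FPKM in each wild-type library. The other anchor, Sdhd, had 135 and 148 FPKM in the ruxolitinib and control knockouts and 126 and 139 FPKM in the ruxolitinib and control wild types. Knockout and wild type overlapped in Sdhd alone. Drug ratios were small here, between -0.14 and 0.05.

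All 8 members of complex III were lower with ruxolitinib in both genotypes on the FPKM scale, and on the TPM scale Uqcrb was at 0.01 in wild type. Uqcr10, a small accessory subunit, had 318 FPKM in the ruxolitinib knockout, 393 in the control knockout, 292 in the ruxolitinib wild type and 339 in the control wild type. Its drug ratios were -0.31 in the knockout and -0.21 in wild type. Uqcrfs1, the Rieske iron-sulfur protein, had 85.5 FPKM in the ruxolitinib knockout, 103 in the control knockout, 78.8 in the ruxolitinib wild type and 89.8 in the control wild type. The core protein Uqcrc1 had 105 FPKM in the ruxolitinib knockout, 116 in the control knockout, 93.5 in the ruxolitinib wild type and 98.3 in the control wild type. Uqcrc1 and Uqcr10 are examples of both shifts at once, and only Uqcrc1 had no overlap of the genotypes.

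Uqcrh, the hinge protein and the most abundant member of complex III, was an exception between genotypes. It had 334 and 358 FPKM in the ruxolitinib and control knockouts and 360.5 and 373 FPKM in the ruxolitinib and control wild types, with genotype ratios of -0.11 with the drug and -0.06 without it that became 0.02 and 0.09 on the TPM scale. Uqcrq, another small subunit, had 266 FPKM in the ruxolitinib knockout, 304 in the control knockout, 243 in the ruxolitinib wild type and 296 in the control wild type. Cytochrome c1, encoded by Cyc1 and outside the symbol rule, had 88.8 FPKM in the ruxolitinib knockout, 111 in the control knockout, 78.1 in the ruxolitinib wild type and 87.4 in the control wild type.

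Complex IV, cytochrome c oxidase, held the member that stood furthest from the rest. Cox7a2l encodes a factor that joins complexes III and IV into supercomplexes, and C57BL/6 mice are known to carry a shortened form of it. It had 67.6 FPKM in the ruxolitinib knockout and 60.7 in the control knockout, against 99.4 in the ruxolitinib wild type and 89.0 in the control wild type. The genotypes did not overlap, with log2 ratios of -0.55 with the drug and -0.54 without it, and of -0.42 and -0.40 on the TPM scale. With the drug it was higher in both genotypes, at 0.15 in the knockout and 0.16 in wild type, which is the reverse of most members. In the authors' deposited table its q-value was 0.000746 in both genotype comparisons. Its locus is chr17:83501917-83514333 (mm10), and 17.8% of its 50-base words occur in another annotated gene.

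In the authors' deposited table, q-values below 0.05 between genotypes were given to no higher member, and to 2 lower ones in each comparison, Cox7a2l and Ndufa6. Over all genes tested there, 6.71% were higher and 6.06% lower at that level with the drug, and 9.17% and 9.64% without it. For ruxolitinib in the knockout Cox5a alone reached it, on the lower side, where 4.77% of all genes did, and 4.63% were higher. For ruxolitinib in wild type no member did, where 2.33% of all genes were higher and 3.96% lower. These q-values compare single libraries.

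Cox5a, a matrix-side subunit of complex IV, had 239.8 FPKM in the ruxolitinib knockout, 316 in the control knockout, 286 in the ruxolitinib wild type and 337 in the control wild type. It had the lowest drug ratio in the knockout, -0.40, with -0.24 in wild type, and the authors' deposited table gave it a q-value of 0.0220 in the knockout. Its genotype ratios were -0.25 with the drug and -0.09 without it, and the second became 0.06 on the TPM scale. Of its 50-base words 32.0% occur in other annotated genes.

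Most other complex IV members had the common pattern. Cox6b1, among the most abundant of them, had 548 FPKM in the ruxolitinib knockout, 597 in the control knockout, 516 in the ruxolitinib wild type and 549.8 in the control wild type. Cox6a1, the widely expressed form of its subunit, had 432 FPKM in the ruxolitinib knockout, 504 in the control knockout, 387 in the ruxolitinib wild type and 454 in the control wild type. Cox8a had 429 FPKM in the ruxolitinib knockout, 526 in the control knockout, 402 in the ruxolitinib wild type and 444 in the control wild type. In all of these genes the ruxolitinib wild type was lowest and the control knockout highest. Cox4i1, the common isoform of subunit IV, was nearly level, with 532 and 556 FPKM in the ruxolitinib and control knockouts and 549.9 and 571 FPKM in the ruxolitinib and control wild types. The other isoform, Cox4i2, had 0.0294 FPKM on average and is no member. The small Cox4i1 ratios between genotypes, -0.05 with the drug and -0.04 without it, became 0.09 and 0.11 on the TPM scale.

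Tissue-restricted isoforms gave another picture. Cox7a1, the heart and muscle form of its subunit, had 20.1 FPKM in the ruxolitinib knockout, 24.8 in the control knockout, 24.6 in the ruxolitinib wild type and 30.7 in the control wild type. It was lower in the knockout and lower with the drug, with ratios from -0.31 to -0.28. On the TPM scale the genotype ratios of Cox7a1 were -0.16 both with and without the drug. Its common counterpart Cox7a2 had 178 FPKM in the ruxolitinib knockout, 212 in the control knockout, 172 in the ruxolitinib wild type and 192 in the control wild type. Cox6b2, known as the testis form, had 29.1 FPKM in the ruxolitinib knockout, 22.7 in the control knockout, 26.1 in the ruxolitinib wild type and 23.2 in the control wild type. It was the member with the highest drug ratio in the knockout, 0.35. Ndufa4, a complex IV subunit despite its name, had 394 and 442 FPKM in the ruxolitinib and control knockouts and 383 and 392 FPKM in the ruxolitinib and control wild types.

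Complex V was led by Atp5b, the catalytic beta subunit of the ATP synthase, which had 564 FPKM in the ruxolitinib knockout, 718 in the control knockout, 482 in the ruxolitinib wild type and 566 in the control wild type. Its genotype ratios were 0.23 with the drug and 0.34 without it, and its drug ratios -0.35 in the knockout and -0.23 in wild type. The control knockout stood apart at the top, and the ruxolitinib knockout and control wild type were nearly equal. In the authors' deposited table its q-value was 0.0641 for the drug in the knockout and 0.0628 for the genotype comparison without the drug. Its partner Atp5a1 had 387 FPKM in the ruxolitinib knockout, 451 in the control knockout, 362 in the ruxolitinib wild type and 399 in the control wild type. Atp5e, the epsilon subunit of the central stalk, had 447 and 497 FPKM in the ruxolitinib and control knockouts and 466 and 504 FPKM in the ruxolitinib and control wild types. Atp5h, a subunit of the peripheral stalk, had 122 and 120.5 FPKM in the ruxolitinib and control knockouts and 119.8 and 109.8 FPKM in the ruxolitinib and control wild types. In Atp5h the control wild type was lowest.

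The c-ring, which rotates as protons pass, is encoded by 3 genes for the same mature peptide. Atp5g3 carried nearly all of the FPKM, with 394 in the ruxolitinib knockout, 470.0 in the control knockout, 359 in the ruxolitinib wild type and 410.2 in the control wild type. Atp5g1 had 4.27 FPKM in the ruxolitinib knockout, 4.85 in the control knockout, 3.01 in the ruxolitinib wild type and 3.46 in the control wild type. Its genotype ratio was 0.39 both with and without the drug, and knockout and wild type did not overlap. Atp5s, which is not a structural subunit of the ATP synthase, had 8.62 and 8.17 FPKM in the ruxolitinib and control knockouts and 10.3 FPKM in each wild-type library.

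**Figure D4:**
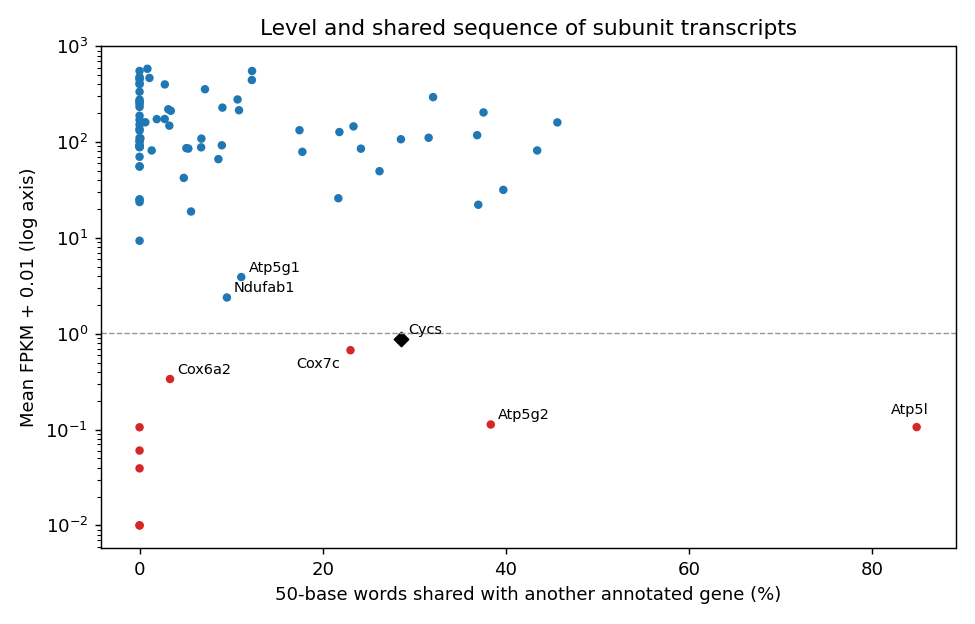
Mean FPKM over the 4 libraries (log axis) against the percent of 50-base words of each gene that also occur in another annotated gene; blue, members; red, rows under 1 FPKM; black diamond, Cycs. The dashed line is the filter, and Atp5l, with 84.8% shared words, lies far below it.

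Near the filter, the members just inside were Ndufab1 at 2.38, Atp5g1 at 3.90 and Atp5s at 9.34 FPKM, and those just outside were Cox7c at 0.664, Cox6a2 at 0.327 and Atp5g2 at 0.103 FPKM. Among the 9 excluded rows, the muscle or testis isoforms Cox6a2, Cox8b, Cox7b2 and Cox8c were at or below 0.327 FPKM, and Ndufa4l2, a paralog of Ndufa4, was at 0.0504. Atp5l, Atp5g2 and Cox7c encode subunits that most cells use, and they were listed at 0.0962, 0.103 and 0.664 FPKM. The plot of level against shared sequence gives the shares of their 50-base words found in other annotated genes, 84.8% for Atp5l, 38.3% for Atp5g2 and 23.0% for Cox7c. Of the annotated members, 54 of 75 shared under 10% and none over 50%. Cycs, the gene for cytochrome c, was at 0.866 FPKM with 28.5% of its words shared. Whether read assignment between near-identical copies set these low values was not tested. Atp5d and Ndufs7 have the same deposited locus (chr10:79697305-80369637), so their values may share reads.

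Counting error was small beside the ratios for most members. Its median standard deviation on the log2 ratio between the control libraries was 0.029, and it was under 0.05 for 65 of the 75 annotated members. The highest, 0.109, belonged to Ndufab1, the mitochondrial acyl carrier protein, and the next, 0.104, to Cox7a1. This covers counting error only and not variation between animals. The error was not worked out for the ruxolitinib libraries. It took the longest coding transcript as the length, so it is too small where a shorter form was expressed.

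**Figure D5:**
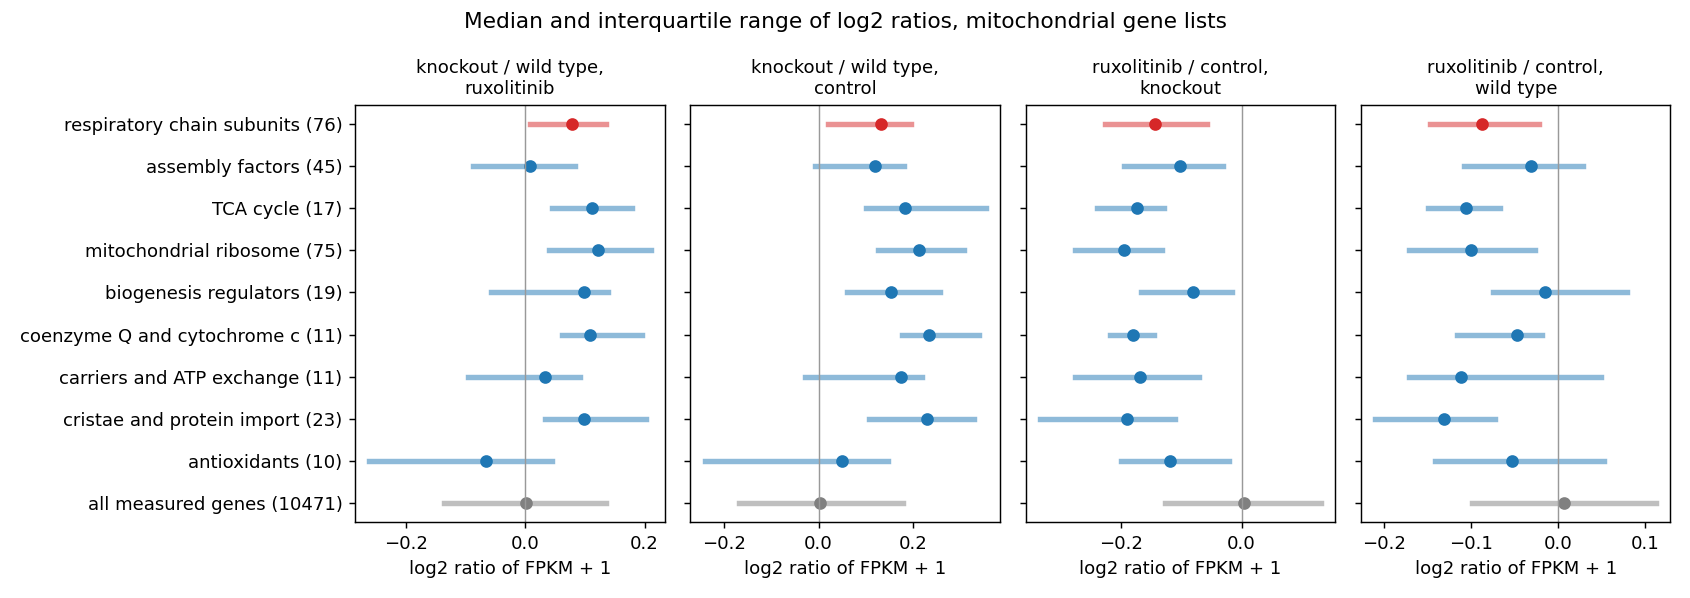
Median (dot) and interquartile range (bar) of log2 ratios for the subunits (red), 8 related mitochondrial gene lists (blue) and all measured genes (grey) in the 4 comparisons; numbers in brackets are genes measured. The mitochondrial ribosome and the cristae and import lists have medians further from 0 than the subunits in every panel.

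Other mitochondrial gene groups, taken from lists chosen by function, mostly had medians on the same side of 0, as the plot of related lists shows. The mitochondrial ribosome, which makes the subunits encoded in mitochondrial DNA, had a median of 0.21 between the control knockout and the control wild type, with 66 of 75 genes above 0. Its drug median was -0.20 in the knockout, where 74 of 75 genes were below 0, and -0.10 in wild type. Enzymes of the TCA cycle had a genotype median of 0.18 without the drug, with 16 of 17 above 0, and a drug median of -0.17 in the knockout. For example, Idh3a, a subunit of isocitrate dehydrogenase, had 46.4 FPKM in the ruxolitinib knockout, 60.7 in the control knockout, 38.5 in the ruxolitinib wild type and 44.7 in the control wild type.

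Genes for cristae and protein import had a median of 0.23, with 22 of 23 above 0, and of -0.19 with the drug in the knockout, with 23 of 23 below 0. Hspd1, the mitochondrial chaperonin, had 42.8 FPKM in the ruxolitinib knockout, 69.4 in the control knockout, 32.2 in the ruxolitinib wild type and 42.1 in the control wild type. Its genotype ratio of 0.71 and drug ratio of -0.68 in the knockout exceeded those of all 76 subunits. Assembly factors had genotype medians of 0.01 with the drug and 0.12 without it, over 45 genes. Carriers and ATP exchange genes had 0.03 with the drug and 0.17 without it over 11 genes, and antioxidant genes -0.07 with it and 0.05 without it over 10.

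The uncoupling protein Ucp2 went against its list, with 664 FPKM in the ruxolitinib knockout and 555 in the control knockout, against 946 in the ruxolitinib wild type and 789 in the control wild type. The adenine nucleotide carrier Slc25a4 followed the subunits, with 96.5 FPKM in the ruxolitinib knockout, 130.4 in the control knockout, 73.5 in the ruxolitinib wild type and 96.0 in the control wild type. Of the regulators of mitochondrial biogenesis, Nrf1 had 14.5 and 14.9 FPKM in the ruxolitinib and control knockouts and 11.9 and 11.4 FPKM in the ruxolitinib and control wild types, with no overlap between genotypes. Pprc1, a related coactivator, had 18.6 and 22.2 FPKM in the ruxolitinib and control knockouts and 15.7 and 17.0 FPKM in the ruxolitinib and control wild types. Esrra went the other way, with 21.8 and 23.6 FPKM in the ruxolitinib and control knockouts and 25.4 and 26.5 FPKM in the ruxolitinib and control wild types. Its genotype ratios were -0.21 with the drug and -0.16 without it, with no overlap between genotypes. The coactivator gene Ppargc1a was listed at 0 in every library. Regulators as a group had a genotype median of 0.10 with the drug, with 13 of 19 above 0. Without the drug it was 0.15, with 16 of 19 above 0.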

How the data were processed

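RNA-seq was available from 4 libraries of bone marrow cells labelled JAK2V617F, 1 for each genotype and treatment, grouped by the titles in the labels. The submitters' processing notes name STAR, Cuffdiff and the build mm10, with no version or annotation stated. The deposited table holds FPKM per gene and library, and the authors' log2 fold changes, test scores and p- and q-values for 6 comparisons, of which 4 were used.

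Members were taken by symbol with a mean of at least 1 FPKM, and the same filter gave 10471 measured genes. Log2 ratios used a pseudocount of 1 FPKM, and counts used folds of 1.2 and 1.5. With 1 library per group no test was run. Members and gene lists were chosen with earlier results of these data known. The named genes were, by rule, the 2 most abundant and the least abundant of each complex, the 4 highest and 4 lowest ratios of each comparison, the rows nearest the filter, a fixed list of familiar subunits and the extremes of each related list. Some genes the rule names have no value in the text, and one is not reported here. The other genes named in connection with a flagged value, a promoter or the X chromosome were chosen after their values were seen.

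Depth was estimated from the FPKM steps of long single-transcript genes, and on genes kept aside 75.2% to 84.6% of values lay within 0.15 of a whole fragment count. Shared sequence was counted as 50-base words of GENCODE M21 transcripts. Promoters came from RefSeq. Alternatives were pseudocounts of 0.1 and 5, other filters, TPM, centring, non-structural members left out, and, chosen after seeing the data, members on the X chromosome or with over 10% shared words left out and a background of genes at 20 FPKM or more. Scripts were tested on simulated data. Tools were pandas 2.3.3, numpy 2.4.6, matplotlib 3.10.9 and scipy 1.17.1, run under Python 3.11.15.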

Additional observations from a re-analysis of the deposited data

Results flagged for a closer look

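Among the 76 members, 12 had drug ratios of opposite sign in the knockout and in wild type, and 13 had genotype ratios of opposite sign with and without ruxolitinib. With the drug, 75% of members were lower and 9.21% higher in both genotypes, beside 36.5% and 39.7% of all genes. In the knockout, 67.1% were higher and 15.8% lower with and without the drug, beside 41.4% and 40.3%. Opposite signs were thus no more common among members than among all genes. The 11 values given here are the opposite-sign cases in which both ratios exceeded the counting standard deviation of that gene, estimated from the control libraries. There was 1 library in each group, and none of these differences was tested. By this criterion the drug ratio differed in sign for 8 complex I genes. The knockout ratio minus the wild-type ratio was -0.52 for Ndufab1 (-0.24 in knockout, 0.28 in wild type), whose values lie just above the filter and whose counting error is the largest of the members. It was -0.20 for Ndufb9 (-0.15 and 0.05), -0.16 for Ndufv1 (-0.13 and 0.04), -0.13 for Ndufb11 (-0.05 and 0.07), -0.12 for Ndufb3 (-0.06 and 0.06) and -0.11 for Ndufa1 (-0.07 and 0.04). It was 0.20 for Ndufv3 (0.08 in knockout, -0.12 in wild type) and 0.18 for Ndufa7 (0.14 and -0.04).

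By the same criterion the genotype ratio differed in sign with and without ruxolitinib for 3 genes. The ratio with the drug minus that without it was -0.18 for Uqcr11 (-0.06 with ruxolitinib, 0.12 without), -0.13 for Ndufb11 (-0.04 and 0.08) and 0.20 for Ndufv3 (0.09 and -0.11). On the TPM scale, the Uqcr11 and Ndufb11 ratios with the drug became 0.08 and 0.09, and the Ndufv3 ratio without it became 0.04.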

How the results depend on the processing

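Directions of the 5 medians held under every alternative run, which were pseudocounts, filters, centring, TPM and members left out. The median ranged from 0.07 to 0.21 for the knockout with the drug and from 0.12 to 0.28 without it, from -0.15 to -0.12 for the drug in the knockout, from -0.09 to -0.05 in wild type, and from -0.07 to -0.04 for their difference. Of 50 values, 46 stayed within the order-statistic interval of the members' median, and 4 moved, all under TPM. These went to 0.21 and 0.28 for the genotype with and without the drug, -0.047 for the drug in wild type and -0.070 for the difference. The interval treats members as independent, though all come from the same libraries. Most alternatives also reuse nearly the same values. It therefore only marks how far a median moved and gives no measure of uncertainty. TPM divides by totals that differ between genotypes, so it shifts genes nearly alike. Numbers of positive members moved under TPM to 26 for the drug in wild type and 13 for the difference, beside 60.6% and 42.4% of all genes. A fold of 1.5 leaves 0 members in every comparison, by construction a stricter count. Among genes at 20 FPKM or more, 47.7% with the drug and 49.5% without it were above 0 between genotypes, and 55 of 71 members in each case. For the drug, 43.5% of these genes in the knockout and 44.7% in wild type were above 0, with medians of -0.03 and -0.02. Of the 71 members, 9 in the knockout and 13 in wild type were above 0, with medians of -0.15 and -0.09. For the difference, 45.1% of these genes and 18 of the 71 members were above 0. No paired analysis was possible because each group has 1 library and no replicate numbers are shared. A model of genotype and drug that takes their interaction as its error was not run. Depth limits Ndufab1 most.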
